A study of Mus musculus with 8 samples.

Results

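The CSMD genes Csmd1, Csmd2 and Csmd3 are 3 very long genes of the mouse, and the 5-hydroxymethylcytosine (5hmC) gained inside them was followed after the catalytic domain of TET3 was switched on. Members were chosen by name and every CpG call inside the span of a gene on GRCm38 was counted, whichever strand or annotation it fell on. Of 49976 genes with a position in the gene table, these 3 held 1408 of the 1849087 CpG calls of the series. Csmd1 (gene ID 94109) lies on chromosome 8 from 15892538 to 17535385, a span of 1.64 Mb, and held 499 calls. Csmd2 (gene ID 329942) lies on chromosome 4 from 127986505 to 128567660, a span of 0.581 Mb, and held 750 calls, more than the 2 longer genes together. Csmd3 (gene ID 239420) lies on chromosome 15 from 47580638 to 48792558, a span of 1.21 Mb, and held 159 calls. The gene table gives no strand, exons or UTRs, so a call inside a span was not assigned to an exon or an intron.

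CSMD proteins are large single-pass membrane proteins whose outer part is built of many CUB and sushi domains, the sushi domain being the repeat of complement regulators. CSMD1 is known as an inhibitor of complement activation, and the genes of this family are best known from the brain, where variants at CSMD1 have been linked to schizophrenia. TET enzymes oxidise 5-methylcytosine to 5hmC, so 5hmC can appear only where a CpG was methylated beforehand.

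All libraries came from one line of mouse embryonic stem cells in which TET1, TET2 and TET3 are knocked out and into which a doxycycline-inducible catalytic domain of mouse TET3, without the rest of the protein, was brought together with a cherry reporter. The groups were the control at 0 h (3 libraries, replicates A, B and C), 6 h (2 libraries, A and B) and 12 h (3 libraries, A, B and C) of 1 µM doxycycline, and the medium held 50 µg/ml ascorbate. Nothing in the labels says whether replicates of a group were separate cultures, so the p-values measure only the spread between these libraries, which may be technical. The files hold DNA calls and no expression, so the labelled cell type was not checked against its markers.

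In APOBEC-coupled epigenetic sequencing (ACE-seq) 5hmC is protected by a sugar, while unmodified and methylated cytosines are deaminated. The level used here is the percentage of CpG calls that stayed undeaminated, taken as 5hmC together with the background of the assay. Any other cytosine that resists deamination would count in this level too. A library held 75023 to 485941 calls. The level of whole libraries at 0 h was 1.13% ± 0.199 (SD, n = 3). It was 6.42% ± 0.212 (SD, n = 2) at 6 h and 24.1% ± 2.36 (SD, n = 3) at 12 h. Intervals in brackets are 95% Wilson intervals on calls and cover counting error only, and calls on one read are not independent.

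All 3 CSMD genes gained 5hmC by 12 h, from a pooled level of 1.24% ± 1.23 (SD, n = 3) at 0 h over 3.62% ± 0.116 (SD, n = 2) at 6 h to 22.2% ± 4.49 (SD, n = 3) at 12 h. The gain was 17.8 ± 2.55 percentage points (SE) for Csmd1, 20.0 ± 2.67 for Csmd2 and 22.8 ± 4.94 for Csmd3. Summed over the 3 genes, undeaminated calls numbered 4 among 267 (0 h), 10 among 280 (6 h) and 183 among 861 (12 h). The pooled level in the single libraries was 2.46, 1.27 and 0% at 0 h, 3.70 and 3.54% at 6 h, and 17.9, 21.8 and 26.8% at 12 h. The 12 h libraries thus lay far above the others without overlap, and replicate C, which also had the highest library level (26.8%), was the highest of them.

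Csmd1, the longest of the 3 and the member known as a complement inhibitor, had the lowest mean level at 12 h. At 0 h 0 of 39, 1 of 29 and 0 of 20 calls were undeaminated in replicates A, B and C. The counts of 0 allow levels of up to 7.69% and 15% in replicates A and C, taking 3 calls as the limit. At 6 h 1 of 32 calls (3.13%) and 4 of 67 calls (5.97%) were undeaminated, so that the lower of the 6 h libraries lay below the highest 0 h library, replicate B with 3.45%. At 12 h the level was 17.7% (20 of 113 calls), 16.9% (21 of 124) and 24.0% (18 of 75), a mean of 19.5% ± 3.88 (SD, n = 3), and all 3 libraries lay above every earlier one.

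Csmd2, the shortest but most densely covered member, showed no rise at 6 h beyond the spread. At 0 h 3 of 75, 0 of 34 and 0 of 38 calls were undeaminated, and all of its undeaminated calls of that time came from replicate A, with 4% (1.37 to 11.1). These 3 calls lay on 1 read, out of 41 reads with at least 2 calls at 0 h. The 4% and its interval therefore rest on 1 read. At 6 h 0 of 19 and 4 of 131 calls were undeaminated, in all 2.67% (1.04 to 6.66) against 2.04% (0.696 to 5.83) at 0 h. The 0 and 6 h libraries overlapped. At 12 h the level was 18.0% (30 of 167 calls), 23.5% (50 of 213) and 30.1% (22 of 73), a mean of 23.9% ± 6.10 (SD, n = 3), with all 3 libraries above every earlier one.

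Csmd3 was covered so thinly that single calls move its level. At 0 h none of 8, 16 and 8 calls was undeaminated, 0 of 32 in all, which allows a level of up to 9.38%. At 6 h 1 of 3 calls in replicate A and 0 of 28 in replicate B were undeaminated, and the 33.3% of replicate A rests on 1 call. At 12 h the level was 18.0% (9 of 50 calls), 30.0% (9 of 30) and 25% (4 of 16), a mean of 24.3% ± 6.03 (SD, n = 3). These 3 libraries lay above all 0 h libraries, but the 6 h library with 3 calls lay above them.

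**Figure D1:**
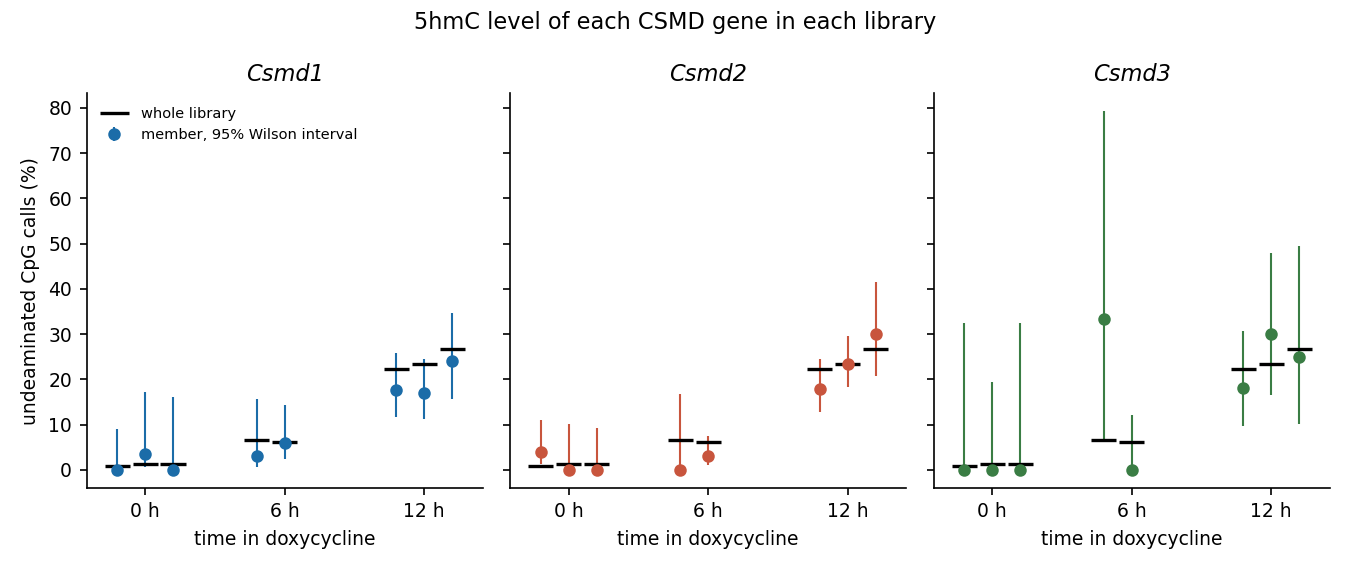
Percentage of undeaminated CpG calls in Csmd1, Csmd2 and Csmd3 (points with 95% Wilson intervals) and in the whole library (black bars) for replicates A, B and C, from left to right, at 0 h and 12 h, and A and B at 6 h. At 12 h the points of Csmd1 (16.9 to 24.0%) lie below the bar of their library in all 3 libraries, and the interval of Csmd3 at 6 h in replicate A spans most of the axis because it rests on 3 calls.

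Gains were tested with limma over the 346 genes in which no library had fewer than 10 calls, among them Csmd1 and Csmd2. Csmd3 did not pass this minimum, and its tests come from the 1805 genes in which no library had fewer than 3 calls, a minimum chosen after its calls had been seen. The gain from 0 to 12 h passed the threshold of 0.05 in all 3 members, with limma adjusted p = 5.43e-05 for Csmd1, 3.21e-05 for Csmd2 and 0.00258 for Csmd3. In a quasi-binomial model, which called 0 of 346 genes, the adjusted p was 0.0941 for Csmd1 and 0.0901 for Csmd2, and on the logit scale limma gave an adjusted p of 0.301 for Csmd3. The gain was shared with most genes: 98.8% of the 346 genes and 92.1% of the 1805 genes were called as gaining, with a median gain of 23.3 points among the 346. All genes of a library share its rise, so these p-values are not independent between genes. In the two-sided exact permutation test of the levels, each member reached p = 0.1, the smallest that 3 libraries against 3 can give.

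From 0 to 6 h neither Csmd1 nor Csmd2 passed the test. The difference was 4.10 points (95% interval -1.64 to 9.83, limma adjusted p = 0.278) in Csmd1 and 0.32 points (-5.57 to 6.22, adjusted p = 0.941) in Csmd2, where 6.36% of the 346 genes were called and the median was 4.93. Csmd3 differed by 3.10 points (-8.38 to 14.6, adjusted p = 0.755 over the 1805 genes). The pooled 6 h level of the 3 members was 3.57% (1.95 to 6.45) where 6.68% was expected from the libraries, and both 6 h libraries lay below their expectation. Weighting the 3 members alike turned this into a mean of 7.58%, since the 1 undeaminated call of Csmd3 in replicate A then counts for a whole member. From 6 to 12 h Csmd1 rose by 13.7 ± 3.32 points (limma adjusted p = 0.00320) and Csmd2 by 19.7 ± 3.48 (adjusted p = 0.000759), against 91.6% of the 346 genes called.

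Whether a CSMD gene gained as much as its libraries was asked with the deviation, the level of the gene minus that of the library. Neither Csmd1 nor Csmd2 differed from its libraries past the threshold, although both estimates lay below 0. The gain of Csmd1 minus that of the libraries was -4.84 ± 2.34 points (95% interval -10.02 to 0.34, limma adjusted p = 0.379), at place 32 from the lowest of 346. That of Csmd2 was -2.41 ± 2.55 (-8.06 to 3.24, limma adjusted p = 0.707). Without replicate A of 0 h, which held all undeaminated calls of Csmd2 at that time on 1 read, it was 0.15. Without replicate A of 12 h it was -0.40. For Csmd3 the deviation was 0.63 ± 4.83 (-10.4 to 11.7, adjusted p = 0.953 over 1805 genes), and it was -2.63 without replicate B of 12 h and 5.04 without replicate A of 12 h. Of all genes, 2.02% of the 346 and 0.942% of the 1805 were called as deviating.

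At 12 h the level of the series was 24.3% on reads with 1 CpG call, 26.1% with 3, 17.3% with 8 to 10 and 5.71% with 11 or more. The last 2 classes held 1.14 and 0.781% of the members' calls, against 4.46 and 7.41% in the series. The expectation was therefore also taken from the library's calls within the same class of CpGs per read. At 12 h Csmd1 held 59 undeaminated calls of 312 where 77.0 were expected, 18.9% (14.95 to 23.6) against 24.7%. It lay below its expectation in 3 of 3 libraries, with differences of -4.27, -7.97 and -4.37 points in replicates A, B and C. Csmd2 held 102 of 453 where 114 were expected, 22.5% (18.9 to 26.6) against 25.2%, and was below in 2 of 3 libraries. Csmd3 held 22 of 96 where 23.9 were expected, 22.9% (15.6 to 32.3) against 24.9%, also below in 2 of 3 libraries.

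Fitted over all genes, the gain at equal CpGs per read minus the library's was -5.73 ± 2.25 points in Csmd1 (95% interval -10.8 to -0.67). Its limma p of 0.0304 did not survive adjustment (adjusted p = 0.339). Csmd2 came to -4.17 ± 2.61 (-10.04 to 1.70, adjusted p = 0.558), to -1.56 without replicate A of 0 h, to -1.97 without replicate A of 12 h and to -2.03 without weights. Csmd3 came to -0.91 ± 4.79 (-11.9 to 10.1, adjusted p = 0.960 over the 1805 genes), to 3.54 without replicate A of 12 h and to -4.18 without replicate B. Only 0.867% of the 346 genes and 0.499% of the 1805 genes were called by this measure.

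Set against 1 Mb on either side, no member differed from its surroundings past the threshold. At 12 h the flanks of Csmd1 had a level of 20.0% (175 of 876 calls), those of Csmd2 23.7% (415 of 1751) and those of Csmd3 18.9% (41 of 217). Csmd1 and Csmd2 lay below their flanks in 3 of 3 libraries, though in replicate A of Csmd1 by 0.052 points only, and Csmd3 lay above its flanks in 3 of 3 libraries. The gain minus that of the flanks was -2.41 ± 3.18 points (95% interval -9.27 to 4.45, limma adjusted p = 0.782) for Csmd1 and -3.64 ± 2.81 (-9.71 to 2.43, adjusted p = 0.715) for Csmd2. For Csmd3 it was 5.18 ± 5.89 (-8.10 to 18.5, adjusted p = 0.778). Without replicate A of 0 h the value of Csmd2 was -0.68, and that of Csmd1 was -1.32 without replicate B of 0 h, -1.38 without replicate C of 12 h and -3.75 without replicate A of 12 h. That of Csmd3 was 8.12 without replicate A of 12 h. With flanks of 0.5 Mb the value of Csmd1 turned to 3.17, and with flanks of 2 Mb that of Csmd3 turned to -0.26. The values above do not allow for CpGs per read. With gene and flanks both set against equal CpGs per read, they were -3.97 ± 3.02 for Csmd1 and -5.31 ± 2.77 for Csmd2. For Csmd3 the value was then 5.25 ± 5.81. The limma adjusted p-values were 0.706, 0.558 and 0.797. By limma 0% of the 346 genes and 0% of the 1805 differed from their flanks, with 32 and 203 genes at an unadjusted p under 0.05.

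**Figure D2:**
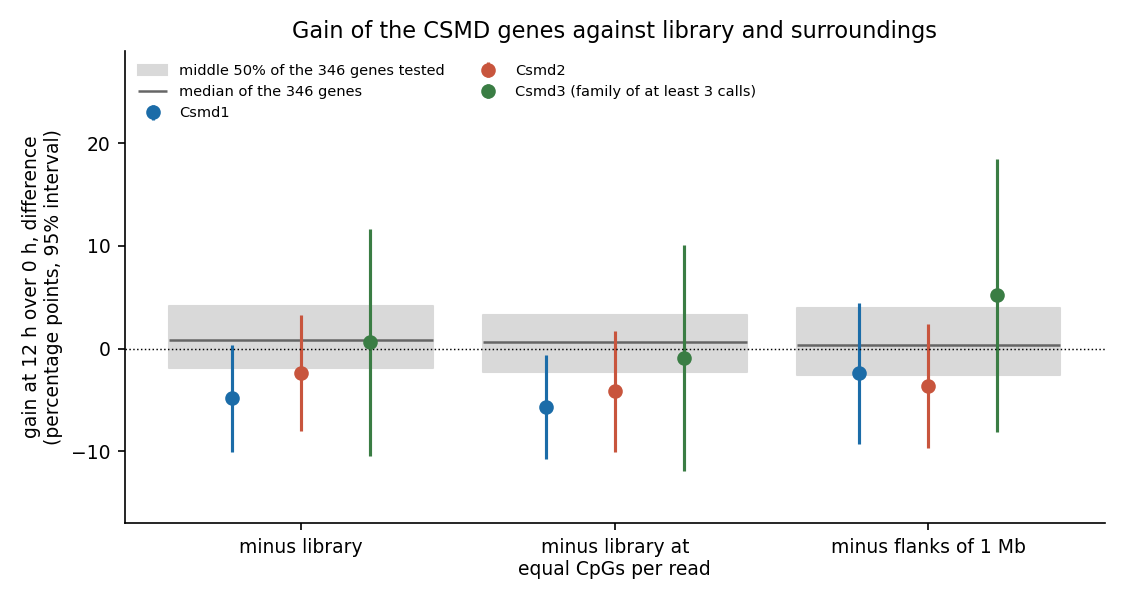
Gain from 0 to 12 h of Csmd1, Csmd2 and Csmd3 minus that of the library, minus that of the library at equal CpGs per read, and minus that of 1 Mb on either side, in percentage points with 95% limma intervals. Grey boxes span the middle 50% of the 346 genes tested, and the line in each is their median. The intervals of Csmd2 and Csmd3 hold 0 in all 3 measures, and that of Csmd1 lies below 0 at equal CpGs per read (-10.8 to -0.67), a difference that did not pass after adjustment.

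The members overlapped in level, and the design is too small for a test between them to pass. The order of their mean 12 h levels was Csmd1 (19.5%), Csmd2 (23.9%) and Csmd3 (24.3%). Within libraries Csmd1 was lower than Csmd2 in 3 of 3, by a difference of -4.31 ± 3.51 points (SD, n = 3), and lower than Csmd3 in 3 of 3, by -4.79 ± 7.18. Csmd2 minus Csmd3 was -0.47 ± 5.84. In replicate A the 3 genes were close together, with 17.7% in Csmd1, 18.0% in Csmd2 and 18.0% in Csmd3. Against the expectation at equal CpGs per read, Csmd1 minus Csmd2 was -3.72 ± 5.07 points at 12 h (SD, n = 3), Csmd1 minus Csmd3 -4.20 ± 7.86 and Csmd2 minus Csmd3 -0.48 ± 6.32. By this measure Csmd1 was not the lowest in replicate A, where it lay 2.13 points above Csmd2 and 1.62 above Csmd3. The two-sided exact permutation test of the differences at equal CpGs per read, 12 h against 0 h, gave p = 0.3, 0.4 and 0.7. Here 0.1 is the smallest p possible. After Benjamini-Hochberg adjustment over the 3 pairs the permutation test gave 0.6, 0.6 and 0.7.

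Each span was cut into 4 stretches of equal length, numbered from the lower coordinate, and the lowest well-covered stretch at 12 h was stretch 1 of Csmd2 (chr4:127986505-128131793). There 12 of 88 calls were undeaminated, 13.6% (7.98 to 22.3), where 25.4% was expected, and the 3 libraries lay close together between 12.5 and 15%. This stretch was picked out of 12 for its low value, after the values had been seen. Its least covered library at 12 h had 16 calls. Stretches 2, 3 and 4 of Csmd2 held 31 of 116 calls (26.7%), 27 of 116 (23.3%) and 32 of 133 (24.1%). In these the libraries spread more widely, from 14.3 to 41.7% in stretch 2 and from 17.3 to 40.0% in stretch 3. The 3 undeaminated calls of Csmd2 at 0 h, which lay on 1 read, all fell in its stretch 3.

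Csmd1 was more even along its length. Its stretches held 19 of 108 calls (17.6%), 13 of 60 (21.7%), 10 of 53 (18.9%) and 17 of 91 (18.7%), each below its expectation of 22.9 to 25.6%. Stretch 1 of Csmd1 lay below its expectation in 3 of 3 libraries, the others in 2 of 3. In Csmd3 the stretches held 4 of 24, 2 of 19, 9 of 22 and 7 of 31 calls. Stretch 3, at 40.9% (23.3 to 61.3), was the highest of any member, but its libraries ranged from 0 to 60% and one of them had 5 calls. Over the 3 members the stretches numbered 1 together had 15.9% (11.7 to 21.3), and those numbered 2, 3 and 4 had 23.6, 24.1 and 21.96%. Since the strand is not in the gene table, stretch 1 may be the start of one gene and the end of another.

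**Figure D3:**
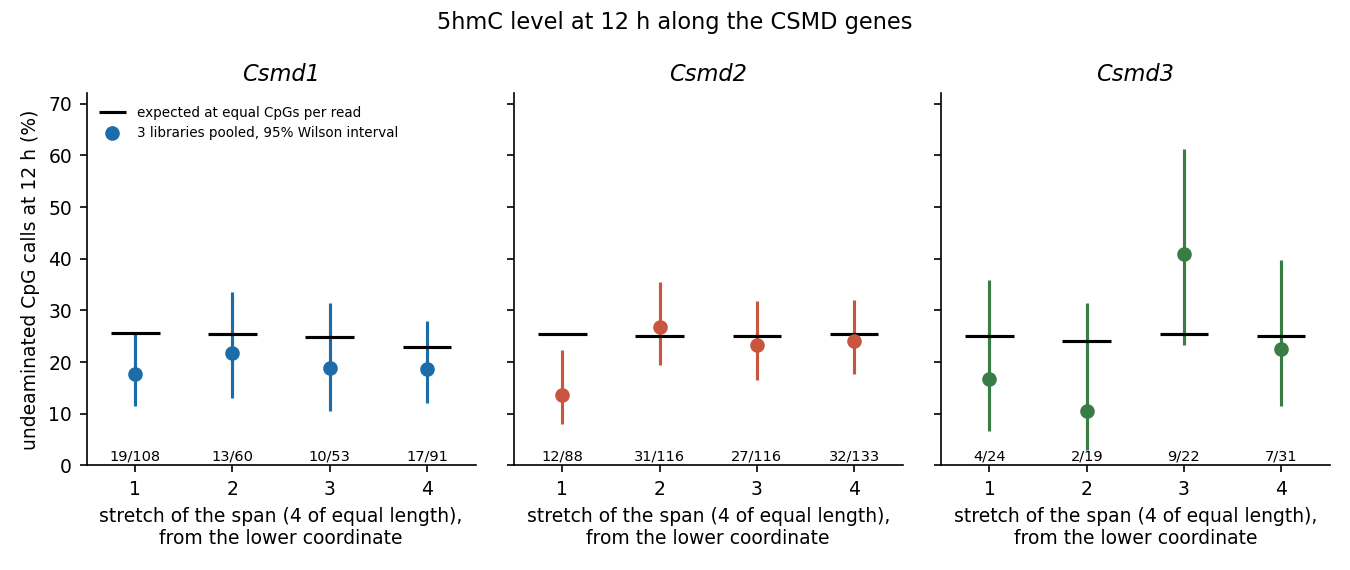
Percentage of undeaminated calls at 12 h in each of the 4 equal stretches of Csmd1, Csmd2 and Csmd3, numbered from the lower coordinate, with the 3 libraries pooled (points, 95% Wilson intervals), against the level expected from the library at equal CpGs per read (black bars). The numbers at the foot are undeaminated calls of all calls. The interval of stretch 1 of Csmd2 (7.98 to 22.3%), a stretch picked for its low value, lies below its expectation of 25.4%.

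With a minimum of 10 calls per library none of the 12 stretches of the members could be tested. With at least 3, a minimum chosen after the calls had been seen, 5 of 12 entered a family of 593 such stretches of genes, and none passed. The gain of stretch 1 of Csmd2 minus that of the libraries was -8.80 ± 2.58 points (limma adjusted p = 0.147). At equal CpGs per read it was -10.7 ± 2.47 (95% interval -16.4 to -4.92, limma adjusted p = 0.0980). For stretch 1 of Csmd1 the same value was -7.22 ± 2.46 (adjusted p = 0.254), for its stretch 2 -2.48 ± 3.30, and for stretches 3 and 4 of Csmd2 -7.93 ± 7.53 and -0.55 ± 2.74. In stretch 1 the limma interval was narrower than the Wilson interval of the 12 h level. These were -16.4 to -4.92 against 7.98 to 22.3 in Csmd2, and -12.9 to -1.52 against 11.6 to 25.8 in Csmd1. The limma intervals there thus fall short of counting error alone. That of Csmd2 rests on libraries with as few as 16 calls at 12 h and 4 at 0 h. Of all 593 stretches, 3.37% were called against the library and 1.52% at equal CpGs per read.

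The members also differed in how many calls they held for their length. Csmd2 had 1.29 calls per kb over the 8 libraries, Csmd1 0.304 and Csmd3 0.131, where the chromosomes 1 to 19 and X had 0.699. This order held in 8 of 8 libraries. Per Mb of span and 100000 calls of the library, Csmd2 had 43.6 to 81.8, Csmd1 11.9 to 26.0 and Csmd3 3.30 to 15.2. Their surroundings followed the same order, with 1.43 calls per kb in the flanks of Csmd2, 0.704 in those of Csmd1 and 0.186 in those of Csmd3. The number of CpGs in the sequence of the spans was not counted, since no genome was used here.

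In windows of 100 kb, Csmd1 held 15 to 53 calls, the full window with 53 lying 100 to 200 kb above its lower end, and all 16 full windows had an undeaminated call at 12 h. Csmd2 held 86 to 144 calls per window, and all 5 full windows had one. Csmd3 held 3 to 25 calls per window, and 7 of 12 had one. These ranges count calls over all 8 libraries. The 5 windows of Csmd3 without one had only 5 to 7 calls each at 12 h, too few to show an absence of 5hmC. The longest stretch without any call was 40.9 kb in Csmd1, 10.1 kb in Csmd2 and 62.0 kb in Csmd3.

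**Figure D4:**
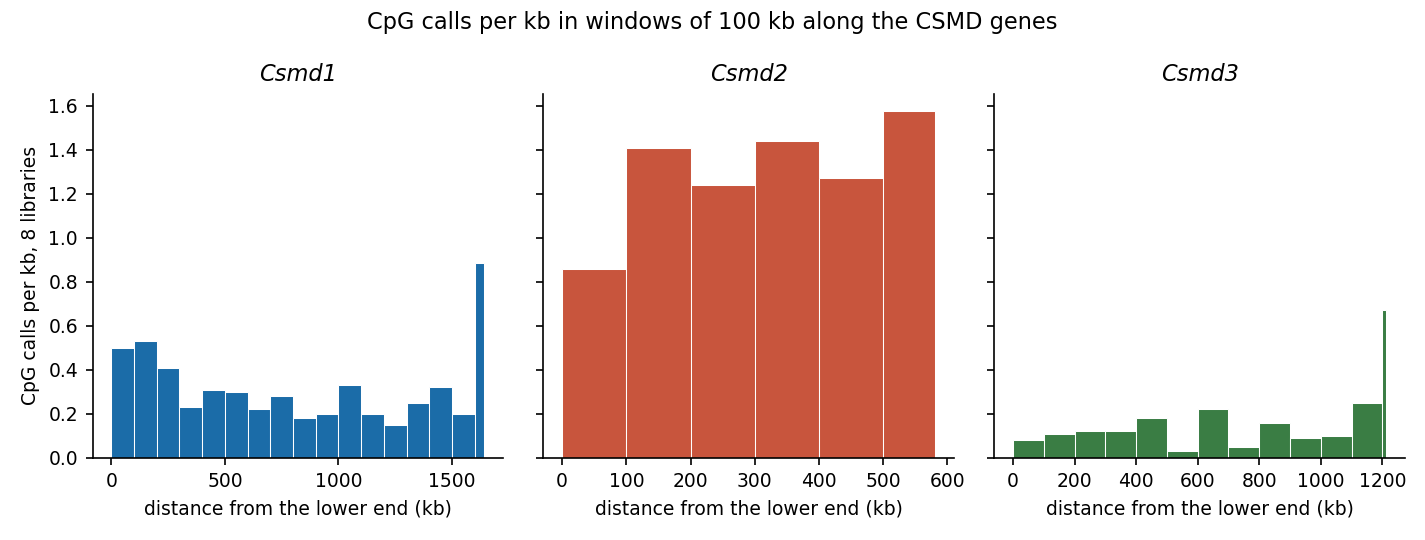
CpG calls per kb over the 8 libraries in windows of 100 kb along Csmd1, Csmd2 and Csmd3, by distance in kb from the lower end of the span (the last window of each gene is shorter). The full windows of Csmd2 hold 86 to 144 calls, those of Csmd1 15 to 53 and those of Csmd3 at most 25, and the short last window of Csmd1 has 0.887 calls per kb.

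Few positions were seen more than once. Csmd1 was read at 485 positions, of which 10 were seen in at least 2 libraries, Csmd2 at 712 (23 in at least 2) and Csmd3 at 155 (4 in at least 2). Levels of different libraries therefore rest almost wholly on different CpGs of the same gene. No call of a member lay in a 10 kb window of at least 200 calls, called a high-copy window here. Of the reads with at least 2 calls, 2 of 208 in Csmd2 repeated the positions and the calls of a second read from the same library, and 0 of 116 in Csmd1 and 0 of 39 in Csmd3 did.

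Reads from Csmd1 and Csmd3 carried few CpGs. Reads with 1 CpG call made up 61.6% of the 302 reads of Csmd1 and 61.8% of the 102 of Csmd3, but 40.2% of the 348 of Csmd2, against 46.2% in the series. Among reads with at least 2 calls at 12 h, undeaminated and deaminated calls were mixed on 31 of 69 in Csmd1, 43 of 125 in Csmd2 and 4 of 25 in Csmd3 (40.7% in the series). All calls were undeaminated on 0 of 69 such reads in Csmd1, 7 of 125 in Csmd2 and 6 of 25 in Csmd3 (6.79% in the series). The 0 of Csmd1 allows a share of up to 4.35%, by 3 reads of the total.

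Other very long genes gave the scale for the members. Of the 226 protein-coding genes of at least 500 kb, Csmd1 was the eighth longest. From the lowest, Csmd3 stood at place 13, Csmd1 at 81 and Csmd2 at 221 by calls per kb (median 0.399), and by pooled 12 h level Csmd1 stood at 40, Csmd2 at 101 and Csmd3 at 112 (median 23.0%). Of the 106 long genes that were tested, 58 had a deviation below 0, with a median of -0.48, and Csmd1 was at place 9 and Csmd2 at 27 from the lowest. At equal CpGs per read the median was -1.21 with 66 genes below 0, and the members were at places 10 and 21. All 106 gained, and 0 deviated by limma on either measure, with 15 and 11 at an unadjusted p under 0.05.

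**Figure D5:**
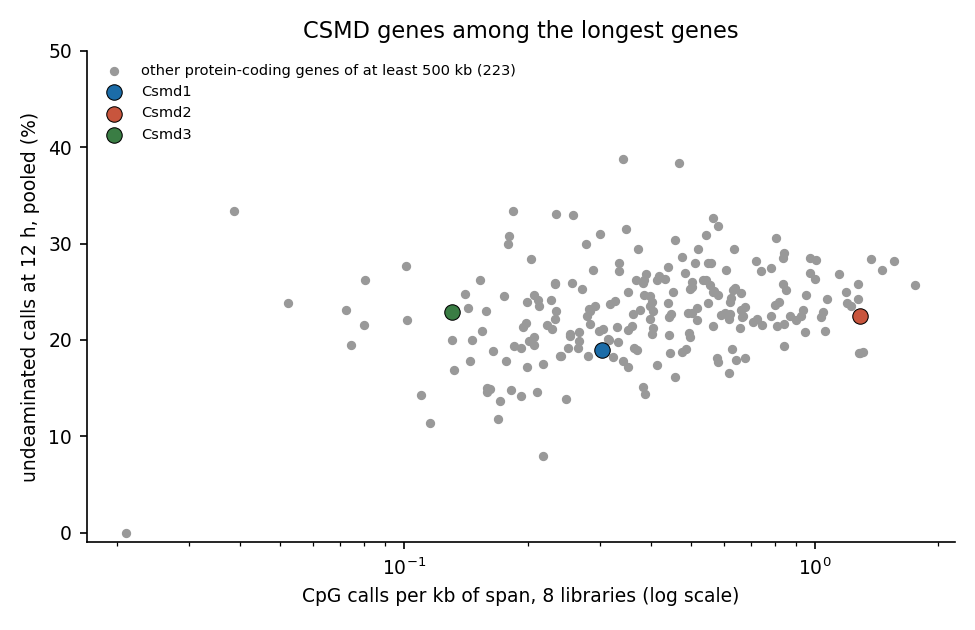
Pooled percentage of undeaminated calls at 12 h against CpG calls per kb (log scale) for the 226 protein-coding genes of at least 500 kb, with Csmd1, Csmd2 and Csmd3 coloured. The 3 members spread over most of the range of coverage, from 0.131 to 1.29 calls per kb, and lie between 18.9 and 22.9% in level.

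Other genes whose proteins hold CUB or sushi domains were taken as the wider family. Of 61 symbols listed, all but Gpr126 matched a gene of the table. The 60 matched genes all held calls, but only Scube1 reached 10 per library. Scube1, which encodes a secreted and surface-bound CUB and EGF-like protein, gained 19.003 ± 3.73 points (limma adjusted p = 0.000457) and deviated from its libraries by -3.19 (adjusted p = 0.757). Together the 60 genes had 561 of 2421 calls undeaminated at 12 h, 23.2% (21.5 to 24.9), and the 3 members 21.3% (18.7 to 24.1), a difference that was not tested. Among those with the most calls, Scube1 had 38 of 180, the neuronal gene Sez6l 33 of 149 and the sushi-domain gene Susd4 38 of 150.

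Around Csmd1, the neighbours with the most calls below its lower end were Arhgef10, with 30 of 132 calls (22.7%) at 12 h, and Kbtbd11, with 3 of 47 (6.38%, 2.19 to 17.2). Below Csmd2 they were Dlgap3, which encodes a postsynaptic scaffold protein, with 14 of 82 (17.1%), and Zmym1, with 2 of 17. Above Csmd2 they were the Polycomb gene Phc2, with 20 of 122 (16.4%), and C77080, with 14 of 61 (23.0%). Above Csmd1 lay Gm40463 and Gm39137 with 6 and 7 calls at 12 h, and around Csmd3 the best covered neighbours, Gm2267, 4930548G14Rik, Gm34336 and Gm7517, had at most 4 each. Of the genes inside the spans, whose calls count for the member too, C030002A05Rik in Csmd1 had 7 of 21 calls undeaminated at 12 h, and in Csmd2 the lncRNA genes Csmd2os and Gm33656 had 10 of 33 and 2 of 23. The others had at most 9 calls each at 12 h, among them CK137956, which overlaps the lower end of Csmd2, with 1 of 9 undeaminated.

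The tested genes most like each member were found by the root mean square difference of the deviation over the 8 libraries. For Csmd1 these were L3mbtl4 (1.73 points), Gm37013 (2.41) and Nckap5 (2.65), against a median of 6.32 over 345 genes. For Csmd2 they were Kalrn (1.93), Clstn2 (1.98) and Nckap5 (2.01), against a median of 6.02. For Csmd3 they were Dnah2 (3.42), Ppp1r9a (4.05) and Grin2a (4.52), against a median of 11.6 over 346 genes. The 8 libraries were weighted alike, and the deviation of Csmd3 in replicate A of 6 h, 26.8 points, rests on 1 of 3 calls. Its values therefore depend largely on that 1 call and are no sign of a shared profile.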

How the data were processed

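The calls deposited by the authors are the output of the Bismark methylation extractor 0.22.3, per the file headers, with 1 line per CpG cytosine and read. Their unit is a call letter (undeaminated or deaminated). Trim Galore, Bismark 0.22.3 and GRCm38 are named in the submitters' processing notes. For alignment settings and duplicate removal, the sources used here give nothing. Libraries held 75023 to 485941 calls.

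Spans were matched by symbol in a GRCm38.p6 gene table without strand, and their 4 stretches run from the lower coordinate. Of the promoter table, 0 members matched, and no sequence is shown. The level in percent per gene and library was fitted with limma 3.58.1 in R 4.3.3 (3 groups, 8 libraries, weights of calls over the binomial variance of the library level, moderated variances, Benjamini-Hochberg over all genes whose 8 libraries each had 10 calls or more, threshold 0.05). Expected levels used 7 classes of CpGs per read (1, 2, 3, 4 to 5, 6 to 7, 8 to 10, 11 or more). The fit was tested on simulated data. Single levels were compared by exact permutation, two-sided. Where 0 undeaminated calls were seen, 3 calls set the limit.

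The members and lists were chosen with earlier results of these data known. The named genes were the members, the 2 neighbours with the most calls within 1 Mb on each side, the 3 most like tested genes of each member and the 3 CUB or sushi genes with the most calls. The genes named inside the spans (those with over 20 calls at 12 h, and CK137956) and the minimum of 3 calls were chosen after values were seen. Alternatives tried were other minimums of calls, weights, scales, models, flanks, classes, runs and left-out libraries, and a replicate block.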

Additional observations from a re-analysis of the deposited data

How the results depend on the processing

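The gain of Csmd1 and Csmd2 kept its direction and its call under all alternatives but one. In a quasi-binomial model it was 3.01 (adjusted p = 0.0941) and 2.64 (adjusted p = 0.0901) on the log-odds scale, and that model called 0 of 346 genes for gain, deviation or equal CpGs per read. The gain of Csmd3 lost its call on the logit scale (2.00, adjusted p = 0.301). No member passed the threshold for the deviation, equal CpGs per read or the flanks under any alternative. Signs turned as follows: Csmd1 against flanks of 0.5 Mb 3.17, Csmd3 against flanks of 2 Mb -0.26, and the deviation of Csmd3 on the logit scale -1.26 and with median centring -1.69. With a library left out, the deviation ranged from -3.52 to 0.15 in Csmd2 and from -2.63 to 5.04 in Csmd3, and that at equal CpGs per read from -4.18 to 3.54 in Csmd3.

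Counts of genes called varied. For gain they were 966 of 1027 genes tested, 1662 of 1805 and 86 of 87 with a minimum of 5, 3 and 20 calls, 80 of 80 with 1 call per read, 196 of 346 on the logit scale, and 336 to 532 with a library left out (532 of 546 without 6 h replicate A, 342 of 346 with all). The same families hold for the counts that follow. For the deviation they were 11 and 17 with a minimum of 5 and 3 calls, 4 without weights, 2 without high-copy windows, 0 with 1 call per read and 0 on the logit scale, and 1 to 11 with a library left out (7 with all). At equal CpGs per read they were 6 and 9 with a minimum of 5 and 3 calls, 0 with 1 call per read and 0 on the logit scale, and 0 to 5 with a library left out (3 with all). Against the flanks they were 1 with a minimum of 20 calls, 1 with 1 call per read and 3 with the replicate block (0 without).

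Deviations centred within each group were correlated between libraries over 346 genes. The correlations were -0.16 to 0.0094 for libraries with the same replicate letter and -0.049 to 0.14 for those with different letters. Centring makes the 2 libraries of 6 h opposites of each other, so their correlations with any other library are opposite by construction. With replicate A of 0 h they were -0.018 and 0.018. For this reason, and because genes had as few as 10 calls in a library, the correlations cannot show whether the letters pair the libraries. With the replicate block the gains were 17.5, 20.4 and 22.8 points and no call of a member changed. Sequencing run 3 alone, with 5.04% of the members' calls, gave pooled differences of 10.5 for Csmd1 and 50 for Csmd3, and differences minus the library of -12.0, 3.44 and 27.5 for Csmd1, Csmd2 and Csmd3. These rest on few calls: 2 of 19 at 12 h and 0 of 4 at 0 h in Csmd1, and 7 of 27 and 0 of 11 in Csmd2. In Csmd3 they rest on 1 of 2 and 0 of 2, so run 3 cannot show a dependence on the run. Weighting the members alike gave 7.58% at 6 h. Csmd2 could not be tested with a minimum of 20 calls or with 1 call per read, nor Csmd3 with 1 call per read, a minimum above 3 or the quasi-binomial model, in which its 0 undeaminated calls at 0 h give no finite estimate. The 6 h contrasts and the stretches of genes were not run under the alternatives.

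Depth limits Csmd3 most: it had 3 to 50 calls in a library, and its 95% interval at equal CpGs per read (-11.9 to 10.1) holds a difference as large as the -5.73 of Csmd1.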

Other observations

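Reads of Csmd1, Csmd2 and Csmd3 with 3 CpG calls were low at 12 h. Of their 174 calls in the 3 genes, 22 were undeaminated, 12.6% (8.50 to 18.4), where such reads of the series had 26.1%. In the 12 h libraries A, B and C the counts were 7 of 69 (10.1%), 13 of 87 (14.9%) and 2 of 18 (11.1%), against library levels for such reads of 24.9, 25.8 and 29.6%, so all 3 libraries lay below. By gene they were 8 of 60 in Csmd1, 14 of 105 in Csmd2 and 0 of 9 in Csmd3. Reads with 1 CpG call (54 of 236, 22.9%), with 2 (52 of 232, 22.4%) and with 4 to 5 (45 of 162, 27.8%) stood beside 24.3, 25.4 and 25.8% in the series. Reads with 6 to 7 were low as well, with 5 of 38 calls (13.2%, 5.75 to 27.3) against 23.7%. The class with 3 calls was picked out of 7 after its values had been seen, the calls of a read are not independent, and the difference was not tested.

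By gene, the 12 h levels on reads with 1, 2, 3 and 4 to 5 CpG calls were 18.6, 17.6, 13.3 and 34.3% in Csmd1 and 32.1, 21.2, 13.3 and 26.1% in Csmd2. In Csmd3 they were 15.4, 35, 0 and 25%, the last pair on 9 and 8 calls. The order of the classes thus differed between the genes in these counts, but within each class the Wilson intervals of the genes overlapped. For reads with 1 CpG call they were 12.5 to 26.7% in Csmd1, 23.1 to 42.7% in Csmd2 and 7.25 to 29.7% in Csmd3. Overlap of intervals does not show that the genes were alike, and neither the levels within a class nor the order of the classes were tested between genes.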
